A study of Mus musculus with 9 samples.

Results

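CD24, the product of Cd24a, is the surface antigen by which the Neurog3 lineage of the small intestine was divided for RNA-Seq, and 6 further antigens used to sort intestinal cells were read from the same libraries. The 7 genes are Cd24a, Epcam, Cd44, Alcam, Prom1, Itga6 and Kit. They were taken by symbol from both deposited tables of normalized counts, each of which lists 35013 genes. The rule that picks them uses no expression value, but it was set with earlier results of these data known. All 7 were present in both tables and passed the filter on low values in both.

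Cells came from the small intestinal epithelium of 4- to 6-week-old mice carrying Neurog3Cre, floxed FoxO1 alleles and the Rosa26tdtomato reporter (NFKO mice). Neurog3Cre removes FoxO1 and turns on Tomato in cells that descend from Neurog3+ endocrine progenitors, so Tomato+ cells are FoxO1-deleted and Tomatoneg cells of mice of this genotype are not. Attached pancreas was cut away, cells were stained with antibodies to CD24 and to Epcam, and 3 populations were sorted, with 3 biological replicates of each: CD24negTomato+, CD24+Tomato+ and Tomatoneg. No mice with intact FoxO1 are in the series, so a Tomato+ to Tomatoneg difference joins the lineage and the deletion, which cannot be told apart. The labels do not say that Tomatoneg cells were divided by CD24. Each Tomato+ population has a table of its own, and the 3 Tomatoneg libraries appear in both, so the comparisons share their controls.

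Surface antigens allow living cells to be sorted without a reporter. CD24 is a small, heavily glycosylated protein held in the membrane by a lipid anchor, and in the crypt it is known for its high level on Paneth cells and on several other secretory cells. Epcam is an epithelial adhesion molecule that marks epithelium as a whole. CD44, a hyaluronan receptor and Wnt target, and CD133 (Prom1) have been used for crypt base and progenitor cells. Alcam (CD166) binds CD6 and other Alcam molecules, Itga6 is a laminin-binding integrin chain, and Kit is the receptor tyrosine kinase for stem cell factor.

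The message of the gating antigen is short. Cd24a lies on chromosome 10 of GRCm38 (chr10:43578284-43584265, + strand), and its longest GENCODE transcript has 2 exons and 1816 bases. The coding part, 231 bases for 76 codons and a stop, runs from chr10:43579254 to chr10:43582765 across the intron. It is shown because most of its bases lie in stretches shared with 2 processed copies of the gene, Gm6212 and Gm15352. Capitals mark bases that lie in a run of 31 bases, the word length searched, found in either copy on either strand.
Cd24a coding sequence: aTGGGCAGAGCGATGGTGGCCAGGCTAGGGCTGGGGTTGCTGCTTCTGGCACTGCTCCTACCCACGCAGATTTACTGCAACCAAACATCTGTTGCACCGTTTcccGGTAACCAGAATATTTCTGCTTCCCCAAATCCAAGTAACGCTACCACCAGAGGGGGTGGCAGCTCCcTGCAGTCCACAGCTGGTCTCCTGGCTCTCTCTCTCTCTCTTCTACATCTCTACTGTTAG
Of the coding bases, 226 are in capitals. Over all Cd24a transcripts, however, only 127 of 2548 distinct runs of 31 bases (4.98%) were shared, and the rest, which include the coding runs that span a lower-case base, were the gene's own. Gm6212 was listed at 0 in every library of both tables, and Gm15352 was above 0 in 1 column, at 0.701 in CD24+Tomato+ replicate 2. The share of such runs found in other genes was 7.48% for Prom1, 6.20% for Itga6, below 0.2% for Epcam, Cd44 and Alcam, and 0 for Kit.

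Estimated depth was 1.92e+07 to 3.92e+07 reads a library, and all 7 genes were above the value of 3 reads (2.10 to 4.29) in every library. FoxO1 mRNA ran from 274 to 467 normalized counts in CD24negTomato+ against 424 to 695 in Tomatoneg (log2 fold change -0.56, adjusted P = 0.427 in limma), with groups that overlapped. In CD24+Tomato+ it ran from 193 to 319 against 444 to 748 (-1.27, adjusted P = 0.0579 in limma, 0.0219 with the replicate number as a block). Values are summed over the whole gene, so exons outside the floxed part still count. Epithelial markers were present in all libraries, with 10 genes summing to 266963 to 461721, and 1 of them (Krt18) rose in CD24+Tomato+. With the block 3 were lower there, and 2 were higher in CD24negTomato+. Tomatoneg replicate 1 stood apart: its correlation with the other Tomatoneg libraries over genes was 0.818 to 0.864, against 0.924 to 0.927 between those 2, and 13025 genes were above 0 in it. Each antigen result that it decides is given with and without it, and genes of the lists below are given with all libraries only.

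Against Tomatoneg, the number of the 7 antigens that passed the test differed between the 2 sides of the CD24 gate, and so did the share of all tested genes. Cd24a, whose protein chose the cells, is among the antigens counted below, and its part in each count describes the gate. In CD24+Tomato+ cells Cd24a, Cd44 and Kit rose and none fell, beside 8.02% of all tested genes called higher and 4.89% called lower. In CD24negTomato+ cells none of the 7 passed in either direction, beside 0.999% of tested genes called higher and 0.320% lower, while 2292 genes of 13420 had an unadjusted P under 0.05, among them Cd24a alone of the 7. With the replicate number as a block, Prom1 joined the 3 in CD24+Tomato+ (10.8% of genes higher and 9.95% lower) and Cd24a passed as lower in CD24negTomato+ (4.34% higher, 2.96% lower). Groups did not overlap for 4 of the 7 in CD24+Tomato+, where 36.0% of genes were so, and for 1 of the 7 in CD24negTomato+, where 25.3% were. In bulk libraries a change in the share of cells that carry an mRNA and a change in the amount per cell cannot be told apart.

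**Figure D1:**
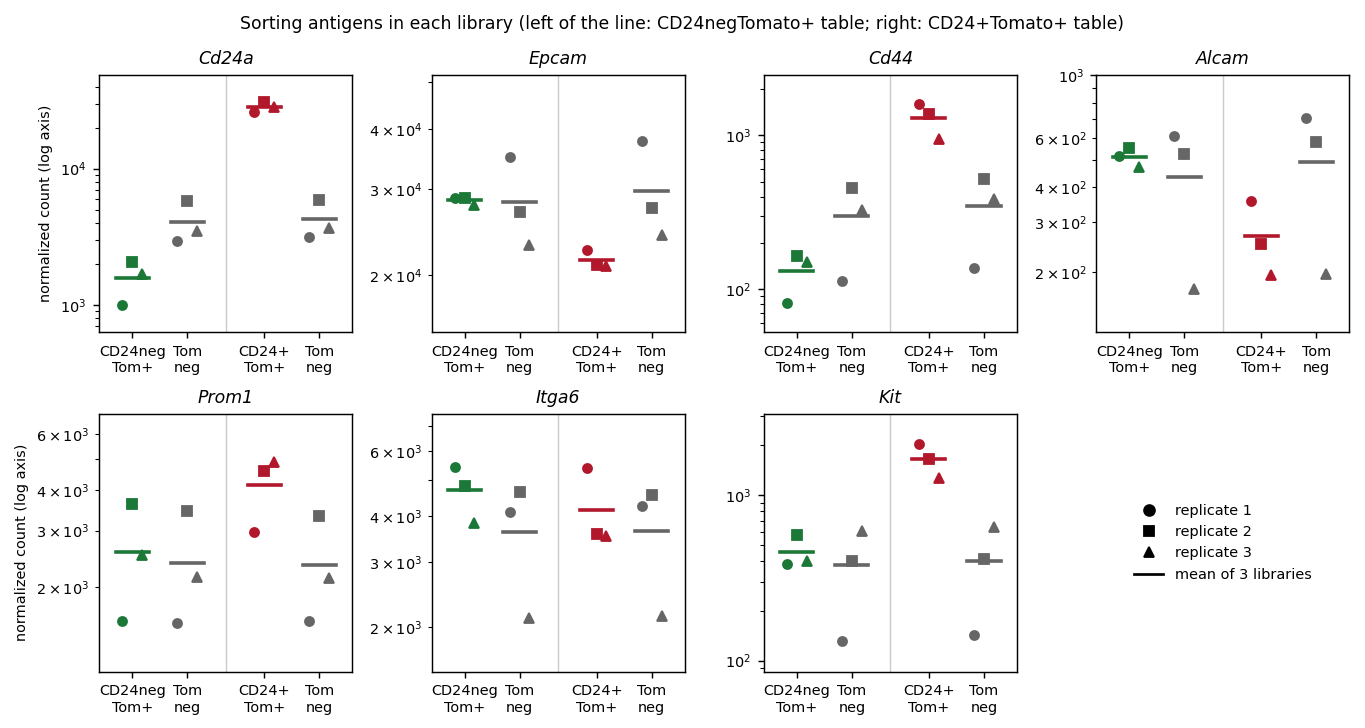
Normalized count (log axis) of each antigen in each library, with the CD24negTomato+ table left of the grey line and the CD24+Tomato+ table right of it. Points are libraries, symbols replicate numbers and bars group means. Cd24a in CD24+Tomato+ libraries lies between 25857 and 30949, above every other library, and the Kit and Cd44 points of Tomatoneg replicate 1 lie lowest in their group.

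Cd24a mRNA followed the antibody gate. CD24+Tomato+ libraries held 25857, 30949 and 28118 normalized counts in replicates 1, 2 and 3, and Tomatoneg libraries in the same table held 3170, 5914 and 3678. Every CD24+Tomato+ library was thus above every Tomatoneg library. The difference was 6.88-fold (log2 fold change 2.78 ± 0.28 SE, adjusted P = 0.00300 in limma), and the 3 same-numbered pairs gave 3.03, 2.39 and 2.93. Since CD24 protein chose these cells, the rise describes the gate. It passed the threshold under all 13 alternative settings, with adjusted P from 2.2e-04 to 0.0301 in limma.

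On the other side of the gate Cd24a was low but not absent. CD24negTomato+ libraries held 993, 2054 and 1689 normalized counts, and the Tomatoneg libraries 2944, 5782 and 3506 in that table. The groups did not overlap, and each pair went the same way (-1.57, -1.49 and -1.05). The estimate was 2.59-fold lower than in Tomatoneg (log2 fold change -1.37 ± 0.36 SE), which did not pass without the block (adjusted P = 0.115 in limma) and passed with it (adjusted P = 0.0133). Without Tomatoneg replicate 1 it was -1.57 (adjusted P = 0.0496 in limma), and over the 13 alternatives the adjusted P ran from 0.0133 to 0.401. At an estimated 3.00e+07 to 3.71e+07 reads, the CD24negTomato+ values are far above the value of 3 reads, and Cd24a mRNA was thus detected in each library of the CD24neg gate.

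Epcam, the other antigen stained for the sort, was abundant in all 9 libraries. It lies at chr17:87635979-87651129 on the + strand and has 10 exons in its longest transcript. Values in CD24negTomato+ were 28799, 28864 and 27920, against 34967, 26903 and 23036 in Tomatoneg, with a log2 fold change of 0.03 ± 0.26 (adjusted P = 0.962 in limma). The CD24negTomato+ libraries lay inside the Tomatoneg range. In CD24+Tomato+ the values were 22504, 20987 and 20915 against 37673, 27533 and 24175. All 3 libraries were below the lowest Tomatoneg library, yet the log2 fold change of -0.45 ± 0.28 did not pass (adjusted P = 0.343 in limma, 0.119 with the block). The SD of Epcam was 527 and 898 in the Tomato+ populations and 6087 and 7027 in Tomatoneg.

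Cd44 and Kit rose together with Cd24a in CD24+Tomato+ cells. Cd44, on the - strand at chr2:102811141-102901665 with 19 exons, encodes the main receptor for hyaluronan, a sugar polymer of the matrix. Its values were 1601, 1364 and 943 in CD24+Tomato+ and 137, 521 and 385 in Tomatoneg. No library overlapped, and the log2 fold change was 2.07 ± 0.51, or 4.20-fold (adjusted P = 0.0385 in limma). The pairs gave 3.54, 1.39 and 1.29, the first being set by the low Tomatoneg replicate 1, without which the estimate was 1.50 (adjusted P = 0.0171 in limma). The call was lost when any one CD24+Tomato+ library was left out (adjusted P = 0.0962 to 0.161), without Tomatoneg replicate 3 (0.0557), with a pseudocount of 0.1 (0.0518) and with libraries scaled to equal totals (0.0579), all in limma.

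In CD24negTomato+ cells Cd44 pointed the other way. Values were 81.2, 166 and 150, against 113, 454 and 327 in Tomatoneg, and each was below the Tomatoneg library of its own number. The groups overlapped, since Tomatoneg replicate 1 was lower than 2 of the CD24negTomato+ libraries. The log2 fold change of -1.02 ± 0.59 did not pass (adjusted P = 0.417 in limma, 0.134 with the block). Without Tomatoneg replicate 1 it was -1.60 (adjusted P = 0.0623 in limma), a move of over 1.5 times in the fold.

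Kit, at chr5:75574916-75656722 on the + strand with 21 exons, gave 2024, 1653 and 1267 normalized counts in CD24+Tomato+ and 142, 411 and 642 in Tomatoneg. The lowest CD24+Tomato+ library was above the highest Tomatoneg library. The log2 fold change was 2.27 ± 0.53, or 4.81-fold (adjusted P = 0.0340 in limma), with pairs of 3.82, 2.004 and 0.98. It was 1.65 without Tomatoneg replicate 1, which moves the fold by more than 1.5 times (adjusted P = 0.0130 in limma). The call was lost when any one CD24+Tomato+ library was left out (adjusted P = 0.0966 to 0.143) and without Tomatoneg replicate 2 (0.0679), both in limma.

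Kit did not separate CD24negTomato+ cells from Tomatoneg. The values were 381, 571 and 400 against 131, 398 and 607, the former lying within the range of the latter, and the log2 fold change was 0.48 ± 0.56 (adjusted P = 0.689 in limma). Without Tomatoneg replicate 1 the estimate was -0.15. Kit is also a defining receptor of mast cells, so the mast cell list was read beside it. Its 8 genes summed to 17.2 to 30.6 in CD24+Tomato+, with Tomatoneg sums of 44.1 to 501, and 4 of the 8 (Cpa3, Cma1, Ms4a2, Fcer1a) were listed at 0 in every CD24+Tomato+ library. Cma1, Ms4a2 and Fcer1a were listed at 0 in every Tomatoneg library too. Interstitial and stromal markers, the list that holds Ano1 of another Kit+ cell type, summed to 89.5 to 148 in CD24+Tomato+, compared with 158 to 394 for Tomatoneg. The part of these cell types in the Kit result was not tested.

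Promoters of the pair that rose with Cd24a are printed because FoxO1, a promoter-binding factor, is deleted by design in the Tomato+ cells. Each runs from 250 bases before to 50 after a RefSeq start (build GRCm38.p6), and capitals mark the GC box GGGCGG, searched on both strands.
Cd44 promoter, chr2:102901616-102901915, - strand: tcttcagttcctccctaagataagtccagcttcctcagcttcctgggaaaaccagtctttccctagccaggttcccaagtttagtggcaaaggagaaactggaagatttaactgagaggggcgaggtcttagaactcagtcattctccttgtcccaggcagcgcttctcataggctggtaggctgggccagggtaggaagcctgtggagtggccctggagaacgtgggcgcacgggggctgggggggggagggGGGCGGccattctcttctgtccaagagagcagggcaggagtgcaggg
Kit promoter, chr5:75574737-75575036, + strand: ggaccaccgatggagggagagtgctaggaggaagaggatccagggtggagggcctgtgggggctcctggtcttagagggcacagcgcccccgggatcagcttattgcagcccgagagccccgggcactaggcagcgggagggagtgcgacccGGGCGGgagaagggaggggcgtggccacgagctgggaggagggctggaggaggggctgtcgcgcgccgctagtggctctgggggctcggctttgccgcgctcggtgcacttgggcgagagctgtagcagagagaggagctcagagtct
The Cd44 window holds 58% G and C, and the Kit window 69%, beside a median of 52.7% over all 32851 promoters. A GC box is in 35.7% of those promoters, and the 5 antigens with an entry (Epcam, Cd44, Alcam, Prom1 and Kit) each had one in at least 1 window. The FOXO motif GTAAACA was in 3.65% of all promoters, and in none of the windows of these 5 genes. The same was true of the E-box CAGCTG (16.3% of all), the TCF motif CTTTGAT (3.73%) and TATAAA (13.6%). These are matches of letters in short windows, not binding sites.

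**Figure D2:**
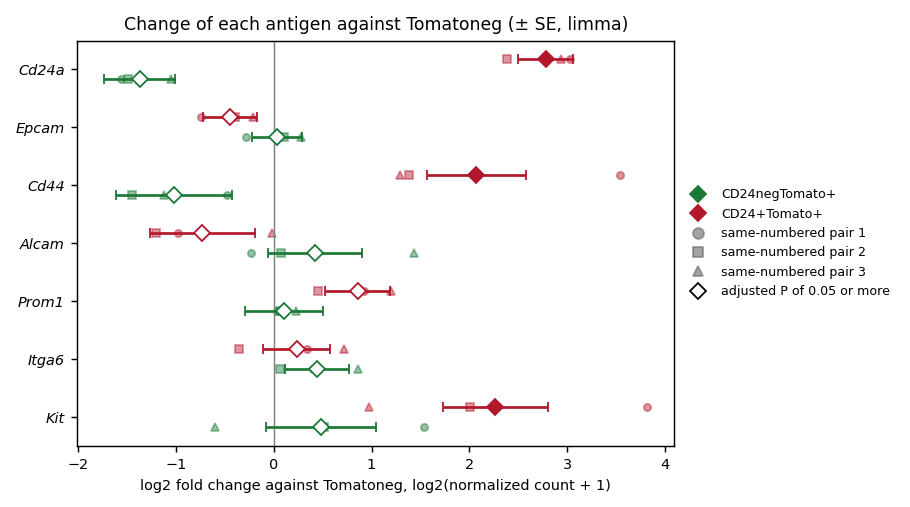
Log2 fold change of each antigen against Tomatoneg (x axis, log2 of normalized count + 1), with SE from limma, for CD24negTomato+ (green) and CD24+Tomato+ (red). Filled diamonds passed an adjusted P of 0.05 and small symbols are the 3 same-numbered pairs. The filled points are Cd24a, Cd44 and Kit in CD24+Tomato+, and the pairs of Cd44 and Kit there spread from 0.98 to 3.82.

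Prom1, a membrane protein of cell protrusions (chr5:43993620-44102032, - strand, 25 exons), was higher in each CD24+Tomato+ library than in its same-numbered partner. The values were 2963, 4582 and 4901 against 1566, 3337 and 2131 in Tomatoneg. Replicate 1 of CD24+Tomato+ lay under replicate 2 of Tomatoneg, so the groups overlapped. The log2 fold change was 0.86 ± 0.33, with adjusted P = 0.142 in limma without the block and 0.0195 with it. In CD24negTomato+ the values of 1575, 3620 and 2517 tracked those of Tomatoneg (1544, 3463 and 2156) by replicate number. The log2 fold change was 0.11 ± 0.40 (adjusted P = 0.914 in limma). Its sign was not settled: the estimate was -0.17 without Tomatoneg replicate 1 and -0.18 without CD24negTomato+ replicate 2.

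Alcam, at chr16:52248996-52454074 on the - strand with 16 exons, was among the least abundant of the 7. Its values were 517, 553 and 472 in CD24negTomato+ against 608, 525 and 174 in Tomatoneg (log2 fold change 0.42 ± 0.48, adjusted P = 0.685 in limma). The low value of Tomatoneg replicate 3 sets the sign, and without it the estimate was -0.14. In CD24+Tomato+ the values were 358, 251 and 194 against 704, 578 and 196, all lower by pair (-0.97, -1.20 and -0.01) but overlapping between groups (-0.73 ± 0.54, adjusted P = 0.430 in limma).

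Itga6, which pairs with the integrin chains Itgb1 and Itgb4 (chr2:71745616-71858416, + strand, 26 exons), did not separate either population from Tomatoneg. Its values were 5421, 4837 and 3841 in CD24negTomato+ against 4093, 4640 and 2116, with log2 fold change 0.44 ± 0.33 (adjusted P = 0.523 in limma). They were 5394, 3576 and 3524 in CD24+Tomato+ against 4249, 4576 and 2140, with log2 fold change 0.24 ± 0.34 (adjusted P = 0.700 in limma). Groups overlapped in both, and Tomatoneg replicate 3 was the lowest library in each table.

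The 2 Tomato+ populations are in tables that were scaled separately, and they were set side by side as the ratio of each antigen to Epcam within a library. Relative to Epcam, Cd24a stood at a log2 ratio of 0.20, 0.56 and 0.43 in CD24+Tomato+ and -4.86, -3.81 and -4.05 in CD24negTomato+. The 3 ratios on each side of the gate lay close together and far from those of the other side. The gap was 4.63 on the log2 scale, or 24.8-fold, and describes the gate.

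Cd44 and Kit, which were not sorted on, followed the same order. The Cd44 ratio was -3.81, -3.94 and -4.47 in CD24+Tomato+ and -8.45, -7.44 and -7.53 in CD24negTomato+, a difference of 3.73 (13.3-fold). For Kit it was -3.47, -3.67 and -4.04 against -6.24, -5.66 and -6.12, a difference of 2.28 (4.85-fold). Prom1 was 1.15 higher and Alcam 0.57 lower on the log2 scale, again without overlap, whereas Itga6 differed by 0.22 with overlap (exact permutation P = 0.4, n = 3 in each group). The 5 antigens that did not overlap each gave an exact two-sided permutation P of 0.1, the smallest that 3 against 3 allows, and 54.7% of 13238 genes were apart in the same way. With Cdh1 in place of Epcam the Prom1 groups overlapped, and with Krt8 the Alcam groups did.

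The ratio is not wholly free of the tables. In the shared Tomatoneg libraries the same ratio differed between the tables by 0.16 for Cd44, 0.10 for Alcam, -0.09 for Prom1, -0.05 for Itga6, 0.01 for Kit and less than 0.01 in size for Cd24a, on the log2 scale and nearly alike in all 3 libraries. With these shifts taken off, an alternative chosen after the values were seen, the differences were 3.57 for Cd44, 2.27 for Kit, 1.23 for Prom1, -0.67 for Alcam, 0.28 for Itga6 and 4.63 for Cd24a.

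**Figure D3:**
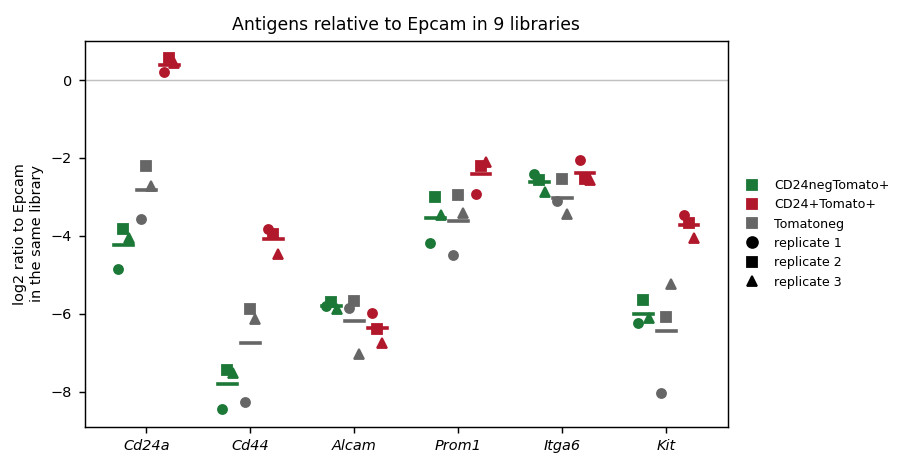
Log2 ratio of each antigen to Epcam within a library (y axis) in the 9 libraries. Points are libraries, bars group means, and the Tomatoneg values are those of the CD24negTomato+ table. Cd24a is above 0 in the 3 CD24+Tomato+ libraries only, and Cd44 and Kit are highest in those libraries.

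Levels of different antigens were compared per kilobase of the longest transcript. In CD24+Tomato+ cells Cd24a led with 15588 ± 1405 normalized counts per kilobase (SD, n = 3), above Epcam with 10524 ± 440. Prom1 (1015 ± 254) and Itga6 (966 ± 247) came next and overlapped, followed by Kit (314 ± 72.2) and Cd44 (232 ± 59.3), which also overlapped, and Alcam (44.3 ± 13.8) was last. In CD24negTomato+ cells Epcam led with 13984 ± 258, and Itga6 (1090 ± 185), Cd24a (869 ± 297) and Prom1 (629 ± 250) formed a middle group in which neighbours overlapped. Kit (86.0 ± 19.98) and Alcam (85.1 ± 6.71) were alike within their spread, and Cd44 was last at 23.5 ± 7.98.

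Tomatoneg kept Epcam first (13874 ± 2984) and Cd24a second (2245 ± 827) in the CD24negTomato+ table. Kit, Alcam and Cd44 were lowest there, at 72.3 ± 45.5, 72.2 ± 38.2 and 53.1 ± 30.7, and could not be ordered beyond their spread. With the mean length of protein-coding transcripts instead, Cd24a and Itga6, and Alcam and Kit, changed places in CD24negTomato+, as did Cd44 and Kit in CD24+Tomato+. All were neighbours that overlapped with the longest transcript. With the mean length Alcam (208 ± 16.4) lay above Kit (86.2 ± 20.03) in CD24negTomato+ without overlap, so their likeness depends on the length used. The lowest 3 in Tomatoneg were then in the order Alcam, Cd44, Kit.

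Partners and relatives of the antigens were read from 8 lists holding 87 further genes. Of these, 78 were tested in the CD24negTomato+ table and 80 in the other. In CD24+Tomato+ cells 10 rose and 8 fell, beside 8.02% of all tested genes called higher and 4.89% lower. In CD24negTomato+ 1 rose and 1 fell, beside 0.999% and 0.320%. With the block the counts were 14 and 16 in CD24+Tomato+ (10.8% and 9.95% of all tested genes), and 5 and 3 in CD24negTomato+ (4.34% and 2.96%). The median log2 fold change of all tested genes was 0.16 and 0.08 in CD24+Tomato+ and CD24negTomato+, and all list medians below are set beside these.

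Among 14 other crypt sorting antigens, Siglecf and Cd9 rose and Itgb4 fell in CD24+Tomato+ (list median 0.23), and none passed in CD24negTomato+ (0.19). With the block 4 were higher and 2 lower in CD24+Tomato+, and 1 higher (Tspan8) and 2 lower (Lrig1 and Ephb2) in CD24negTomato+. Siglecf encodes a sialic acid-binding lectin that is found on tuft cells and eosinophils. It had 813, 491 and 409 normalized counts against 30.3, 87.1 and 47.1, a log2 fold change of 3.42 ± 0.53 (adjusted P = 0.00984 in limma). Cd9, a tetraspanin, changed by 1.36 ± 0.28 (adjusted P = 0.0227) and Itgb4, the partner of Itga6 in hemidesmosomes, by -0.90 ± 0.23 (adjusted P = 0.0461, limma), while Itga6 itself did not pass. With libraries scaled to equal totals Itgb4 did not pass.

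For ligands and signalling partners of CD24, 6 of 8 listed genes were in the tables. Siglecg, a lectin of B cells that binds CD24, fell in CD24+Tomato+, with 0, 0 and 0.831 normalized counts against 31.6, 16.2 and 18.1 (adjusted P = 0.0324 in limma, 0.0620 with the block). The CD24+Tomato+ values are below that of 3 reads, so no fold is given. B and plasma cell markers moved with it: their 8 genes summed to 137 to 285 in CD24+Tomato+, compared with 547 to 1845 for Tomatoneg, and their part in the fall was not tested. Of that list 2 genes fell in CD24+Tomato+ and 1 in CD24negTomato+, or 3 in each with the block. The kinases Lyn, Fyn and Src did not pass, and the list median was -0.38 in CD24+Tomato+ and -0.12 in CD24negTomato+.

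Of 14 Epcam partners and proteases, 13 were tested, and Cd9 and Bace1 rose in CD24+Tomato+ (list median 0.22) with none passing in CD24negTomato+ (0.11). Bace1, a membrane protease that can cut Epcam, had 1162, 1008 and 723 against 87.6, 164 and 123 normalized counts, a log2 fold change of 2.96 ± 0.37 (adjusted P = 0.00555 in limma). The γ-secretase genes and Cldn7, the claudin that binds Epcam, did not pass in either population. With the block 2 genes of the list were higher in CD24negTomato+, and 1 was lower in CD24+Tomato+.

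Among 12 Cd44 partners, Mmp14 rose and Msn fell in CD24+Tomato+ (list median 0.02), and Msn fell in CD24negTomato+ (0.13). Mmp14, a membrane protease that sheds CD44, had 1488, 1550 and 1617 against 329, 608 and 475 (1.76 ± 0.28, adjusted P = 0.0102 in limma). Msn, which encodes moesin, a link from CD44 to actin that is abundant in leukocytes, was at 58.7, 32.6 and 36.5 in CD24+Tomato+ against 227, 319 and 196 (-2.53 ± 0.50, adjusted P = 0.0201 in limma). In CD24negTomato+ it was at 41.7, 38.4 and 45.1 against 209, 309 and 185 (-2.43 ± 0.44, adjusted P = 0.0494 in limma). Of the list 4 genes passed as lower in CD24+Tomato+ with the block.

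T cell markers were read beside Msn. The 10 T and intraepithelial lymphocyte genes summed to 482 to 597 in CD24+Tomato+ and 639 to 1225 in CD24negTomato+, against 2746 to 10705 in Tomatoneg over both tables. Of the 10, 7 fell in CD24+Tomato+ and 2 in CD24negTomato+ (7 and 4 with the block), and their part in the Msn result was not tested. Cd3e, a T cell antigen on the list of antigens used to gate cells out, was at 16.6, 22.9 and 4.51 in CD24+Tomato+ against 121, 362 and 228 in Tomatoneg (-4.03 ± 0.78, adjusted P = 0.0196 in limma). Itgam, a myeloid integrin, changed by -1.10 ± 0.29 (adjusted P = 0.0467), a call lost with equal library totals, and 6 genes of that list were tested with a median of -1.02 in CD24+Tomato+. None of the 5 tested passed in CD24negTomato+ (-1.16).

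Of 8 relatives of Alcam and Prom1, 7 were tested. Bcam, an immunoglobulin-type laminin receptor near to Alcam in build, rose on both sides of the gate: 1672, 1158 and 864 in CD24+Tomato+ against 131, 45.1 and 91.8 (3.85 ± 0.48, adjusted P = 0.00567), and 633, 675 and 564 in CD24negTomato+ against 122, 44.2 and 87.8 (2.98 ± 0.44, adjusted P = 0.0243, both limma). In CD24+Tomato+ Cd6, the T cell receptor for Alcam, fell to 2.85, 1.14 and 3.76 from 46.3, 40.1 and 52.7 (adjusted P = 0.0250 in limma), beside the T cell markers above. Tspan3, a tetraspanin, changed by -0.91 ± 0.19 (adjusted P = 0.0234). With the block 2 of the list were higher in CD24+Tomato+. The list medians were 0.21 and 0.03 in CD24+Tomato+ and CD24negTomato+.

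Laminin adhesion genes around Itga6 were split. The laminin chains Lamb1 and Lamc1 rose and the integrin chains Itgb4 and Itga3 fell in CD24+Tomato+ (median of the 14-gene list 0.53), and none of the list passed in CD24negTomato+ (0.47). Lamb1 was at 409, 609 and 237 against 59.3, 127 and 30.9 (2.64 ± 0.63, adjusted P = 0.0361 in limma), and Lamc1 changed by 1.24 ± 0.33 (adjusted P = 0.0482). Itga3, which like Itga6 binds laminin with Itgb1, was at 3940, 3102 and 3866 against 17041, 5917 and 9011 (-1.42 ± 0.38, adjusted P = 0.0497 in limma). The highest of these Tomatoneg values is replicate 1, the library that stood apart, and the call lies close to the threshold. With equal library totals 1 gene of the list passed as higher and 1 as lower, and with the block Itga2 passed as higher in CD24negTomato+.

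Kit signalling genes passed in 2 of 14 cases in CD24+Tomato+ (list median below 0.01 in size) and in none in CD24negTomato+ (-0.04). Ptpn6, a phosphatase that restrains Kit, had 2653, 2781 and 1936 against 794, 881 and 895 (1.50 ± 0.22, adjusted P = 0.00900 in limma). Etv1, a transcription factor stabilized by Kit signals in other cell types, had 645, 560 and 223 against 0, 36.8 and 12.8 (5.75 ± 1.30, adjusted P = 0.0301 in limma). The value of 0 is Tomatoneg replicate 1, so the size of this fold is set in part by that library and the pseudocount. Kitl, the ligand, and Cbl passed as lower in CD24+Tomato+ only with the block, as did Etv1 as higher in CD24negTomato+.

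**Figure D4:**
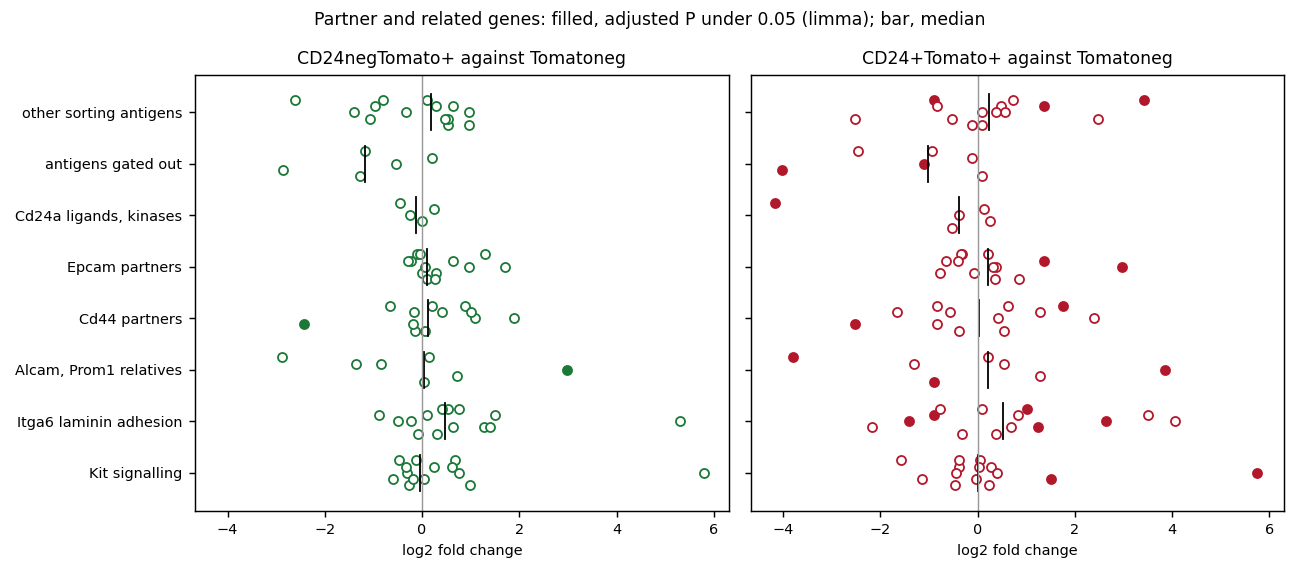
Log2 fold change against Tomatoneg (x axis) of the tested genes of 8 lists around the antigens, for CD24negTomato+ (left) and CD24+Tomato+ (right). Each point is a gene, filled where the adjusted P was under 0.05 in limma, and bars are list medians. There are 2 filled genes on the left (Msn and Bcam) and most points on both sides are open.

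Paneth and tuft markers differed from Tomatoneg in the same CD24+Tomato+ libraries as Cd24a, Cd44 and Kit. All 10 Paneth markers rose in CD24+Tomato+ against Tomatoneg, and their sum was 517092, 2.33e+06 and 1.94e+06 in replicates 1, 2 and 3 against 45069, 163393 and 173820. The defensin (Defa) genes on that list have near-identical copies between which reads can be split. In CD24negTomato+ 1 of the 10 (Nupr1) rose, and with the block 6 passed as lower. The sums there were 20273, 49551 and 52603 against 41628, 158816 and 164788, lower in each pair, with groups that overlapped. Tuft markers rose for 6 of 8 in CD24+Tomato+ (sums of 11938 to 14230 against 1444 to 1794), and 3 of 6 tested fell in CD24negTomato+ (264 to 340 against 1279 to 1614), or 5 with the block.

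Goblet markers rose for all 8 in both populations, though only 5 of the 8 passed in CD24negTomato+ with equal library totals. Enteroendocrine markers rose for 12 of 12 in CD24+Tomato+ and 8 of 12 in CD24negTomato+, where the block gave 10 higher and 2 lower (Sst and Gip). Stem markers, the cells for which Cd44 and Prom1 have been used, did not pass in CD24+Tomato+ (0 of 8), and Olfm4 fell in CD24negTomato+. With the block 2 passed as higher in the former and 3 as lower in the latter. Enterocyte markers fell for 4 of 8 in CD24+Tomato+, or 8 of 8 with the block, which also gave 1 (Fabp2) as higher in CD24negTomato+. Pancreatic acinar genes passed in no case without the block and Ctrb1 passed as higher with it in CD24+Tomato+, where replicate 3 had a sum of 3483 against 341 to 489 in the other CD24+Tomato+ libraries. Myeloid, endothelial and stromal lists had at most 1 gene past the threshold in any comparison (Itgam and Tek, in CD24+Tomato+). Within CD24+Tomato+, Cd44 and Kit were highest in replicate 1, the library with the lowest Paneth sum and the highest tuft sum, and lowest in replicate 3. The enteroendocrine and enterocyte sums there were also highest in replicate 1 and lowest in replicate 3. The stem sum had the reverse order, and the goblet sum was highest in replicate 3. The part of these cell types in the Cd24a, Cd44 and Kit results was not tested.

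Genes whose levels over libraries were most like an antigen's were ranked by the lower of the 2 Pearson correlations, each over the 6 libraries of a table. For Cd24a genes at the head of the ranking included Ccdc85b (0.964), Cd300lf (0.961), Lrmp (0.960) and Pla2g2a (0.947). Of these, Cd300lf, Lrmp and Pla2g2a passed as higher in CD24+Tomato+, beside 8.02% of all tested genes. None passed in CD24negTomato+, beside 0.999% higher and 0.320% lower. The ranking used the same libraries and Cd24a follows the gate, so these calls follow in part from how the genes were picked. Leading genes were Nfatc2 (0.968) and Cdc23 (0.964) for Cd44, Esrp2 (0.987) and Zbtb8a (0.980) for Kit, and Zscan22 (0.947) and Med10 (0.940) for Prom1. They were Mtf1 (0.981) and Usp12 (0.974) for Epcam, Elk4 (0.991) and Rab8b (0.990) for Alcam, and Ltn1 (0.990) and Zfp709 (0.981) for Itga6. Among the antigens, Cd44 ran closest to Cd24a in both tables (r = 0.867 and 0.913), and Kit did so only in the CD24+Tomato+ table (0.882, against -0.05). With 6 points a table, 2 groups of libraries and shared Tomatoneg libraries, these are descriptions.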

How the data were processed

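Poly(A) mRNA of 3 CD24negTomato+, 3 CD24+Tomato+ and 3 Tomatoneg samples was sequenced by the authors. The deposited values are a signal that the authors derived from kallisto 0.44.0 estimates of gene counts on GRCm38, divided by DESeq2 size factors, per the paper's methods and the submitters' processing notes, within each of 2 tables of 6 libraries (35013 genes each). From one table to the other the Tomatoneg values shift by a median factor of 1.02 to 1.08, and tests stayed within a table. Whole reads could not be recovered, since 16.7% to 39.9% of low values lay within 0.01 of a whole multiple of the commonest low value, so depth is an estimate and no count test was run.

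Differences were tested two-sided by lmFit and trended eBayes of limma 3.58.1 (R 4.3.3) on log2(normalized count + 1), a scale that understates changes of low genes, keeping genes whose mean reached 10 (13420 and 13874). P values were adjusted by the Benjamini-Hochberg method over all tested genes, with 0.05 as the threshold, after tests on simulated data. The replicate numbers come from the labels ("Biol rep"). Deviations of same-numbered libraries from their group means correlated at 0.302, 0.291 and 0.342 in the CD24negTomato+ table and at 0.283, 0.180 and 0.375 in the other. Those of differently numbered libraries correlated at -0.231 to -0.063 in the CD24negTomato+ table and at -0.364 to -0.030 in the other. Differences are therefore also printed by same-numbered pair, and the number was used as a block in an alternative fit. The main fit had no block and ignores any pairing. Adjusted P values come from it unless the block or another setting is named. Neither the labels nor the paper say that same-numbered libraries share mice. The blocked fit is printed where it changes the call of an antigen, and as counts where it moves those of a list by over 1.5 times.

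Ratios, ranks and exact tests used scipy 1.17.1, pandas 2.3.3 and numpy 2.4.6 under Python 3.11.15. Positions are from GENCODE M21 (GRCm38) and promoters from RefSeq. The members and gene lists were chosen with earlier results of these data known. Named genes were the 7 antigens, Foxo1, list genes past the threshold (up to 3 per list and comparison, and named here for the lists around the antigens) and the genes most alike. A few genes that meet this rule are not reported here. Names beyond that rule were chosen after their values were seen. Alternatives were other pseudocounts, filters and scalings, the block, and leaving out each library.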

Additional observations from a re-analysis of the deposited data

Results flagged for a closer look

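Cd24a moved in opposite directions on the 2 sides of the CD24 gate in every same-numbered pair: its log2 fold change against Tomatoneg was -1.37 in CD24negTomato+ and 2.78 in CD24+Tomato+. Cd44 did the same by pair, with -1.02 in CD24negTomato+, where the groups overlapped and the test was not passed, and 2.07 in CD24+Tomato+. For neither gene was this difference itself tested, as both comparisons use the same Tomatoneg libraries in separately scaled tables, and for Cd24a it follows the gate.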

How the results depend on the processing

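With the replicate number as a block, 1 antigen (Cd24a) passed as lower in CD24negTomato+ in place of none, and Prom1 passed in CD24+Tomato+. The block changed no other call of an antigen. List genes higher in CD24negTomato+ went from 1 to 5 with the block, and those lower from 1 to 3 with the block and 2 with equal library totals. In CD24+Tomato+ list genes lower went from 8 to 16 with the block. Leaving out 1 library at a time gave 0 to 1 antigens lower in CD24negTomato+ (1 without Tomatoneg replicate 1) and 1 to 3 higher in CD24+Tomato+ (1, Cd24a, when a CD24+Tomato+ library was the one left out). Signs reversed only for antigens that did not pass. With equal library totals Epcam was -0.17 and Prom1 -0.094 in CD24negTomato+. Leaving out 1 library gave, in CD24negTomato+, -0.10 to 0.20 for Epcam, -0.14 to 0.76 for Alcam, -0.18 to 0.42 for Prom1 and -0.15 to 0.95 for Kit, and in CD24+Tomato+ -0.11 to 0.44 for Itga6. The cause was not tested. With 3 libraries a group, Cd44 and Kit stand close to the threshold. The mean differences in ratio kept their sign under every reference gene, pseudocount and shift tried, but for Itga6 this means little. Relative to Cdh1 it differed by 0.014, with pairs of both signs. Other differences relative to Cdh1 were 4.43 for Cd24a, 3.53 for Cd44, 2.07 for Kit, 0.94 for Prom1 and -0.78 for Alcam. Epcam itself was -0.21 relative to Cdh1, without overlap, and -0.08 relative to Krt8, with overlap.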
